A study of Mus musculus with 12 samples.

Results

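The 44 genes described here are interferon-stimulated genes and genes of MHC class I antigen presentation, matched by mouse symbol in count tables of 49315 genes; all 44 were found. They were listed by name and function, not picked by a cutoff on these values, and they fall into 10 roles, from the IFIT family to a chemokine. RNA was measured in primary mouse cultures labelled as Müller glia, the main glial cell of the retina, of wild-type genotype. For every library 4 passages are recorded. The glia were kept in transwells with cultured cells of the retinal pigment epithelium (RPE), also primary. The RPE cells had been treated with PNU-282987 at 100 nM (called PNU here), which activates α7 nicotinic acetylcholine receptors, or with the solvent DMSO alone. Co-culture lasted 2 h or 6 h. This gives 4 groups of 3 libraries: PNU 2 h, DMSO 2 h, PNU 6 h and DMSO 6 h. All groups carry DMSO, for which the labels give 0.1% in one passage and 1% in another. Mouse strain and age are not given in the sources used here. The labels call the libraries biological replicates and do not say whether they came from separate animals or cultures, and the p-values here cover no more than the spread among these libraries, which may be technical.

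Interferons are secreted proteins that cells release when they sense viral nucleic acid or inflammation. They bind receptors that act through JAK kinases and STAT proteins. Type I interferons assemble ISGF3, a complex of STAT proteins with IRF9 that binds the interferon-stimulated response element (ISRE) in promoters, and interferon γ acts through STAT dimers that bind the GAS element. The induced genes block viral replication, mark the cell through MHC class I molecules loaded with peptides, and in part feed back on the pathway. Many are also transcribed at a low tonic rate without infection, and retinal glia are among the cells known to respond to interferons.

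The promoters of many of these genes hold the letters of the elements named above. The few shown all hold such letters. They belong to members whose groups did not overlap at 2 h or 6 h, or whose p was the smallest in their role. Other members that meet this rule, with or without such letters, are not shown. RefSeq promoter windows (GRCm38.p6, 250 bases before to 50 after the start) were at hand for 34 of the 44 members. The ISRE core was searched as GAAANNGAAA and the GAS core as TTCNNNGAA, on either strand, with N for any base. The ISRE core lay in the window of 18 of 34 members, or 52.9%, against 3.99% of all 27025 genes in the table. The longer form that goes on with CT lay in 12 members, or 35.3%, against 0.303% of all genes, and each of these 12 also counts under the core. The GAS core lay in 9 members, or 26.5%, against 9.55% of all genes. A match describes the letters only and does not show that a factor binds there. Capitals mark the ISRE core or its reverse complement, except for Irf1, where they mark the GAS core. Each sequence is 30 bases, written 5′ to 3′ along the gene's own strand, with GRCm38.p6 positions.
Ifit3, chr19:34583363-34583392, plus strand: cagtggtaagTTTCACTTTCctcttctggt
Ifit3b, chr19:34607759-34607788, plus strand: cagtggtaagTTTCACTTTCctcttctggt
Gbp7, chr3:142530273-142530302, plus strand: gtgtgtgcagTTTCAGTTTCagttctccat
Irgm1, chr11:48871425-48871454, minus strand: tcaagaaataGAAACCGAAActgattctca
B2m, chr2:122147538-122147567, plus strand: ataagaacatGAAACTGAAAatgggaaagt
Bst2, chr8:71537577-71537606, minus strand: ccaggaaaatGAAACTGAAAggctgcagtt
Isg15, chr4:156200871-156200900, minus strand: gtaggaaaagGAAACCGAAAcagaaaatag
Irf1, chr11:53769914-53769943, plus strand: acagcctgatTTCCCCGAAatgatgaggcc
The 30-base stretches of Ifit3 and Ifit3b were identical, and the core shown lay 156 bases before the start of Ifit3 and 188 bases before that of Ifit3b. Each window held another ISRE core, 122 bases before the start in Ifit3 and 154 in Ifit3b. In B2m the core lay 139 bases before the start and in Gbp7 53 bases before it. Of the genes shown, Isg15 held 3 overlapping copies, and Irgm1 and Bst2 held 2 each. The windows of 12 of the 34 members, among them Tap1, H2-K1 and H2-D1, held neither core. Irf7, Xaf1, Trim25, Dtx3l and Oasl2 are also among these 12, though they meet the rule by which the sequences shown were picked.

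Library totals ran from 44332013 to 66518799 counts, and 3 counts, taken as the floor of detection, equal 0.0451 to 0.0677 CPM, the count scaled to a common library total. The floor covers counting error only. Libraries varied unevenly within groups. PNU 2 h replicates 2 and 3, PNU 6 h replicates 2 and 3 and all 3 DMSO 6 h libraries were nearly identical, with pairwise biological coefficients of variation of 0.0163 to 0.0223, though each pair differed by more than sampling noise and each library was counted. The other pairs stood at 0.150 to 0.382. If near-identical libraries share a culture, n = 3 overstates the replication and p-values are too small. DMSO 2 h replicate 3 lay nearer to the PNU 2 h libraries than to its own group for 26 of the 36 members tested, as it did for 76.6% of all genes. PNU 6 h replicate 1 lay nearer to DMSO 6 h for 30 of 36 members, against 62.1% of all genes. Whether these libraries were exchanged between groups was not tested and the labels do not settle it, and an exchange would change every difference between PNU and DMSO given here. The Y-linked gene Ddx3y stood at 2.23 CPM in PNU 2 h replicate 1, 5.00 CPM in DMSO 2 h replicate 3 and 7.43 and 6.74 CPM in PNU 6 h replicates 2 and 3, and at most 0.141 CPM in the other 8 libraries, so the cultures were not alike in it. Xist, the X-inactivation transcript, stood at 0.0469 to 2.46 CPM, highest in PNU 6 h replicates 2 and 3, and the sex of the cultures was not inferred. At 6 h every Ddx3y-high library is a PNU library, and for these libraries treatment and culture cannot be told apart.

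Markers qualify the label of the cells. Vim, an intermediate filament of glial and mesenchymal cells, ran from 6063 to 7451 CPM, Sox9 at 63.4 to 292 CPM and Glul, glutamine synthetase, at 61.5 to 94.4 CPM. Rlbp1, the retinaldehyde-binding protein of mature Müller glia, did not exceed 0.302 CPM, nor did Aqp4, a water channel of glia, exceed 0.218 CPM, while the collagen gene Col1a1 stood at 3509 to 4895 CPM. Of 12 leukocyte and microglia markers, 4 had a median above 1 CPM, and Ptprc, the pan-leukocyte marker CD45, stood at 0 to 0.235 CPM, with P2ry12 and Cd3e at or under the floor in every library. The summed level of that list ran from 258 to 320 CPM in PNU 2 h, 315 to 369 in DMSO 2 h, 168 to 368 in PNU 6 h and 356 to 364 in DMSO 6 h, nearly all of it Tmem119, which mesenchymal cells also express. Of that list, Csf1r, the CSF1 receptor, rose with PNU at 6 h (log2 fold change 1.81 ± 0.29 SE, edgeR adjusted p = 0.0141). At 2 h 0 of the list's 6 tested markers passed, with 1 at an unadjusted p under 0.05, beside 5149 of all 17164 genes tested. At 6 h 3 of these 6 had an unadjusted p under 0.05, beside 2683 of all genes. Fitted differences were positive for 4 and negative for 2 at 2 h, with a median of 0.39. At 6 h they were positive for 5 and negative for 1, with a median of 0.63. Over all genes, 0.291% passed at 2 h and 1.05% at 6 h. Of 10 pericyte and smooth muscle markers, Cspg4 rose at 2 h (0.86 ± 0.15, adjusted p = 0.0385), and Cnn1 and Mcam rose at 6 h (1.10 ± 0.22 and 0.47 ± 0.08, adjusted p = 0.0380 and 0.0192). Fitted differences were positive for 7 and negative for 3 of these 10 markers at each time. Their summed level was 4476 to 4919 CPM in PNU 2 h against 3606 to 4341 in DMSO 2 h. It was 4438 to 4498 in PNU 6 h against 3693 to 3755 in DMSO 6 h, without overlap at either time. Acta2 alone ran from 1502 to 2405 CPM. The summed Müller glia markers, most of it Vim, were also separate at 2 h, at 7418 to 7740 CPM with PNU against 6248 to 7334 with DMSO. At 6 h they overlapped, at 6590 to 7653 against 6710 to 6759 CPM. Of 8 tested, 0 passed, with 3 at 2 h and 1 at 6 h at an unadjusted p under 0.05. Of 10 fibroblast markers, Dcn and Lum fell at 6 h (-1.12 ± 0.23 and -4.54 ± 0.68, adjusted p = 0.0467 and 0.0108). Lum was low, at 0 to 1.13 CPM over the 12 libraries. Fitted differences were negative for 9 and positive for 1 of the fibroblast markers at 2 h, and negative for 6 and positive for 4 at 6 h. Their summed level overlapped at 2 h, at 18999 to 21235 CPM with PNU against 19836 to 25135 with DMSO. At 6 h it did not overlap, at 21325.5 to 22249.7 CPM with PNU against 22645.3 to 22823.4 with DMSO. Whether these differences in markers bear on the members was not tested. In bulk RNA, fewer cells of a type and less RNA per cell cannot be told apart.

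Levels per transcript length (TPM, which also scales for length) showed how unevenly the program was expressed. B2m, the invariant light chain of MHC class I, had a median of 1304 TPM over the 12 libraries (range 1010 to 1665), the highest of the members, followed by the heavy chain H2-D1 at 88.0 TPM (76.1 to 111). Bst2, the tetherin that holds budding virus on the cell surface, followed at 56.7 TPM and Ifi35 at 35.3 TPM. Irgm1, an interferon-inducible GTPase that acts in autophagy and in defence against intracellular bacteria and parasites, stood at 31.3 TPM and the heavy chain H2-K1 at 27.6 TPM. Their ranges overlapped (Irgm1 19.9 to 39.5, H2-K1 25.1 to 35.6), and so did those of Stat2, Trim25, Ifit2, Tap1 and Ifit3, with medians of 19.5, 19.3, 18.2, 14.1 and 11.3 TPM. In all, 11 members had a median of at least 10 TPM, 13 lay between 1 and 10 TPM, and 20 lay under 1 TPM. Among these 20 were genes that dominate an acute interferon response, such as Isg15 (0.131 TPM), Ifit1 (0.293 TPM) and Cxcl10 (0.123 TPM), while Rsad2 and Mx1 had a median of 0.

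A filter on low counts left 36 members to test. Cxcl10, Gbp5, Zbp1, Oas1a, Oas2, Oasl1, Mx1 and Rsad2 did not pass it. Fold changes are on the log2 scale, and adjusted p-values come from edgeR's quasi-likelihood test with Benjamini-Hochberg adjustment over the 17164 tested genes, and 0.05 is the threshold.

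With PNU at 2 h, Irgm1 fell and no other member passed the test. The fitted difference was negative for 33 of the 36 members tested, the exceptions being Trim25, Oasl2 and Dhx58, with a median of -0.66 against -0.01 over all genes tested. Over all genes, 0.291% passed at 2 h (0.0816% lower and 0.210% higher), and 19 of the 36 members had an unadjusted p under 0.05 beside 5149 of the 17164 genes. All 3 PNU libraries lay below all 3 DMSO libraries for 12 members (Ifit2, Ifit3b, Irf7, Bst2, Xaf1, Ifih1, Ddx58, Parp9, Gbp7, Irgm1, B2m and Psmb8), which is 33.3% of those tested, against 13.6% of all genes. They lay above for Trim25 and for the untested Cxcl10, against 9.06% of all genes tested.

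At 6 h, Nlrc5, the transactivator of MHC class I genes, fell and no other member passed. The difference was negative for 26 of 36 members, with a median of -0.24 against -0.00 over all genes, of which 1.05% passed (0.484% lower and 0.571% higher). At an unadjusted p under 0.05 there were 7 members and 2683 genes. The PNU libraries lay below all DMSO libraries for 8 members (Ifit2, Ifit3, Ifit3b, Dhx58, Trim25, Irgm1, B2m and Nlrc5), or 22.2% of those tested, a share close to the 20.8% of all genes. They lay above for Usp18 (14.1% of all genes). The groups were separate at both times, with PNU lower, for Ifit2, Ifit3b, Irgm1 and B2m.

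**Figure D1:**
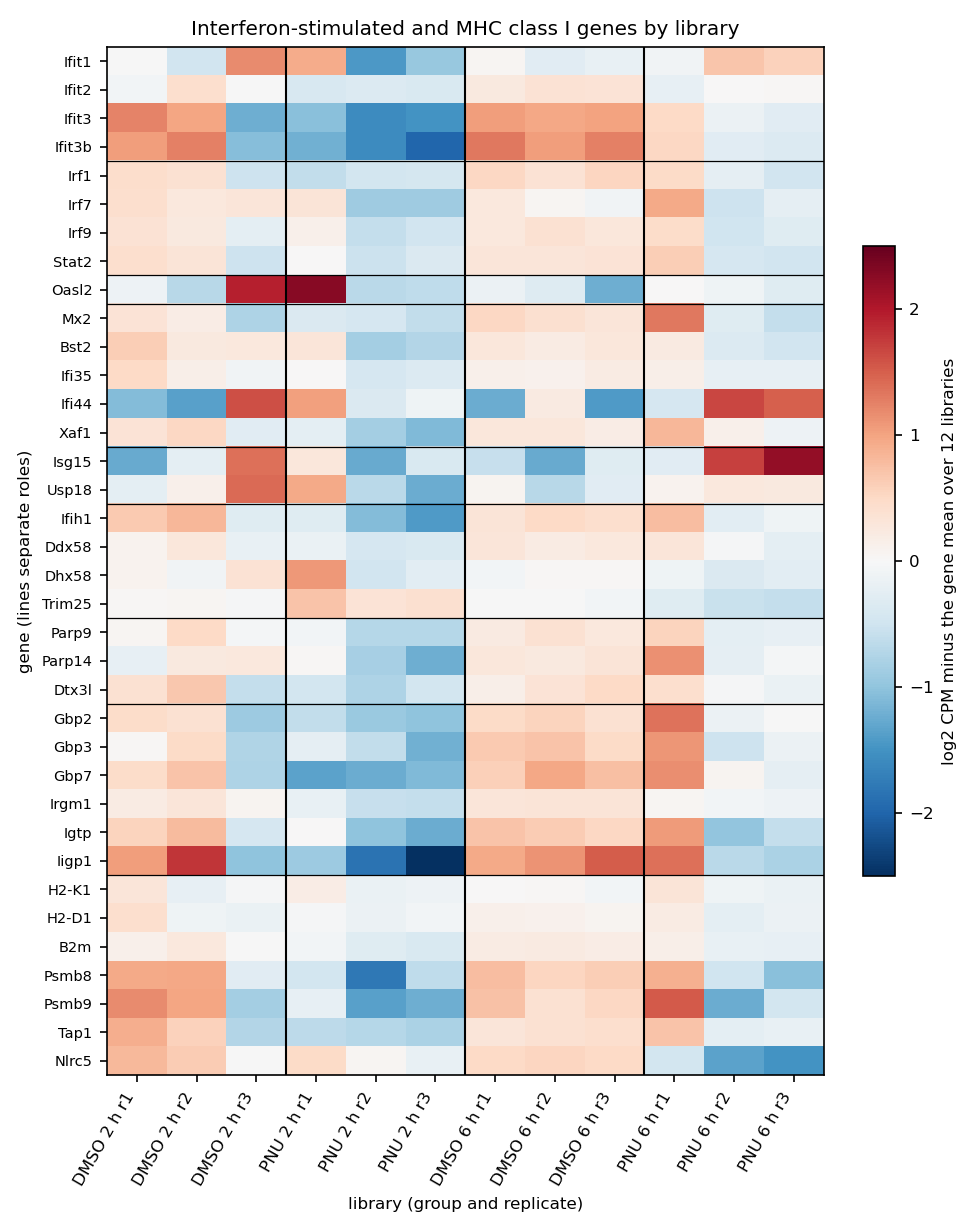
Heat map of the 36 members tested (rows, ordered by role) in the 12 libraries (columns). Colour is log2 CPM minus the gene's mean over the 12 libraries. PNU 2 h replicates 2 and 3 are the lowest library for 14 and 13 members, PNU 6 h replicate 1 is the highest for 13, and DMSO 2 h replicate 3 is low where its group is high for many of them.

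In the plot of the members by library, the columns show in which libraries members were highest or lowest. PNU 2 h replicates 2 and 3 were the lowest of all 12 libraries for 14 and 13 of the 36 members, as they were for 9.04% and 9.55% of all genes. PNU 6 h replicate 1 was the highest for 13 members and for 10.8% of all genes. DMSO 2 h replicates 1 and 2 were the highest for 6 and 7 members, and for 15.1% and 13.8% of all genes.

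The IFIT proteins bind foreign RNA and stop its translation. Ifit2 (chr19:34550694-34576419, GRCm38) stood at 18.6, 19.8 and 19.3 CPM in PNU 2 h replicates 1 to 3 and at 23.7, 35.8 and 25.4 CPM in DMSO 2 h. Its 6 h values were 22.4, 26.4 and 26.6 CPM with PNU and 31.2, 33.8 and 33.5 CPM with DMSO. The groups did not overlap at either time, and the differences of -0.51 ± 0.12 SE at 2 h (adjusted p = 0.0636) and -0.37 ± 0.12 at 6 h (adjusted p = 0.178) did not pass. Ifit3b (chr19:34607970-34613401), a close copy of Ifit3, held 0.530, 0.413 and 0.301 CPM with PNU at 2 h and 2.65, 3.34 and 0.610 CPM with DMSO. At 6 h these values were 1.91, 1.10 and 1.05 CPM against 3.41, 2.82 and 3.29 CPM. DMSO 2 h replicate 3 alone came near the PNU level. The difference was -2.37 ± 0.52 at 2 h (adjusted p = 0.0589) and -1.21 ± 0.48 at 6 h (adjusted p = 0.246). Its neighbour Ifit3, with the identical promoter stretch shown above, ran from 1.96 to 2.78 CPM in PNU 2 h and held 13.8, 12.3 and 2.53 CPM in DMSO 2 h (-2.04 ± 0.49, adjusted p = 0.0636). At 6 h it ran from 5.00 to 8.57 CPM with PNU and from 12.0 to 12.6 CPM with DMSO, and that difference did not pass either (-0.94 ± 0.47, adjusted p = 0.365). The sources used here do not say how reads shared by these copies were counted, so the split between them is uncertain. Ifit1 stayed under 1 CPM in every library, from 0.0870 to 0.719 CPM, with overlapping groups.

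Among the transcription factors of the pathway, Irf1, an early target of interferon γ, stood at 7.38, 8.46 and 8.60 CPM with PNU at 2 h and at 15.6, 15.9 and 8.21 CPM with DMSO. DMSO replicate 3 lay within the PNU range and the other DMSO libraries far above it. At 6 h Irf1 held 16.7, 10.4 and 8.62 CPM with PNU and 17.4, 15.7 and 17.7 CPM with DMSO, so PNU replicate 1 lay within the DMSO range. The differences were -0.66 ± 0.27 (adjusted p = 0.127) and -0.49 ± 0.26 (adjusted p = 0.402). Stat2, the ISGF3 subunit with the transactivation domain, held 26.7, 18.6 and 21.0 CPM with PNU at 2 h against 35.5, 35.4 and 19.1 CPM with DMSO. The 6 h values were 42.5, 20.9 and 19.9 CPM with PNU against 34.4, 34.5 and 35.5 CPM with DMSO. The groups overlapped at both times, each time through the library that stood apart, and neither difference passed (-0.41 ± 0.30, adjusted p = 0.370, and -0.31 ± 0.30, adjusted p = 0.671). Irf9, the DNA-binding subunit of ISGF3, differed by -0.43 ± 0.26 and -0.36 ± 0.26. Irf7, which amplifies type I interferon production, held 2.45, 1.07 and 1.07 CPM with PNU at 2 h against 2.65, 2.55 and 2.502 CPM with DMSO, and the narrow gap between the groups did not pass (-0.72 ± 0.40, adjusted p = 0.241).

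The OAS enzymes make the oligoadenylate that activates RNase L. Oasl2, Oas1a and Oas2 showed another distribution: their transcripts were highest in PNU 2 h replicate 1 and DMSO 2 h replicate 3. Oasl2, a member of the same family, held 2.21, 0.261 and 0.271 CPM with PNU at 2 h and 0.389, 0.270 and 1.81 CPM with DMSO. Its range at 6 h was 0.361 to 0.457 CPM with PNU and 0.176 to 0.406 CPM with DMSO. Its difference was 0.15 ± 0.84 at 2 h and 0.42 ± 0.93 at 6 h (adjusted p = 0.916 and 0.867), and the 2 h value turned to -1.62 without PNU 2 h replicate 1. Oas1a held 1.02 CPM in PNU 2 h replicate 1 and 1.33 CPM in DMSO 2 h replicate 3, and at most 0.0703 CPM elsewhere. Oas2 held 0.265 and 0.250 CPM in the same libraries and at most 0.0193 CPM, under the floor, elsewhere. Oasl1 did not share this: it had 6 counts in PNU 2 h replicate 1, 0 in DMSO 2 h replicate 3 and 7 in DMSO 2 h replicate 1, and stood at 0 to 0.133 CPM. The libraries were picked from these values, so what follows is a description. Both lay above the other 10 for 6 of the 44 members (Ifit1, Oas1a, Oas2, Oasl2, Usp18 and Dhx58). Among tested genes this held for 4 of 36 members, or 11.1%, and for 4.32% of all genes. The same libraries held the Ddx3y transcripts given above, in 1 PNU and 1 DMSO library at 2 h, and its part in this distribution was not tested.

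**Figure D2:**
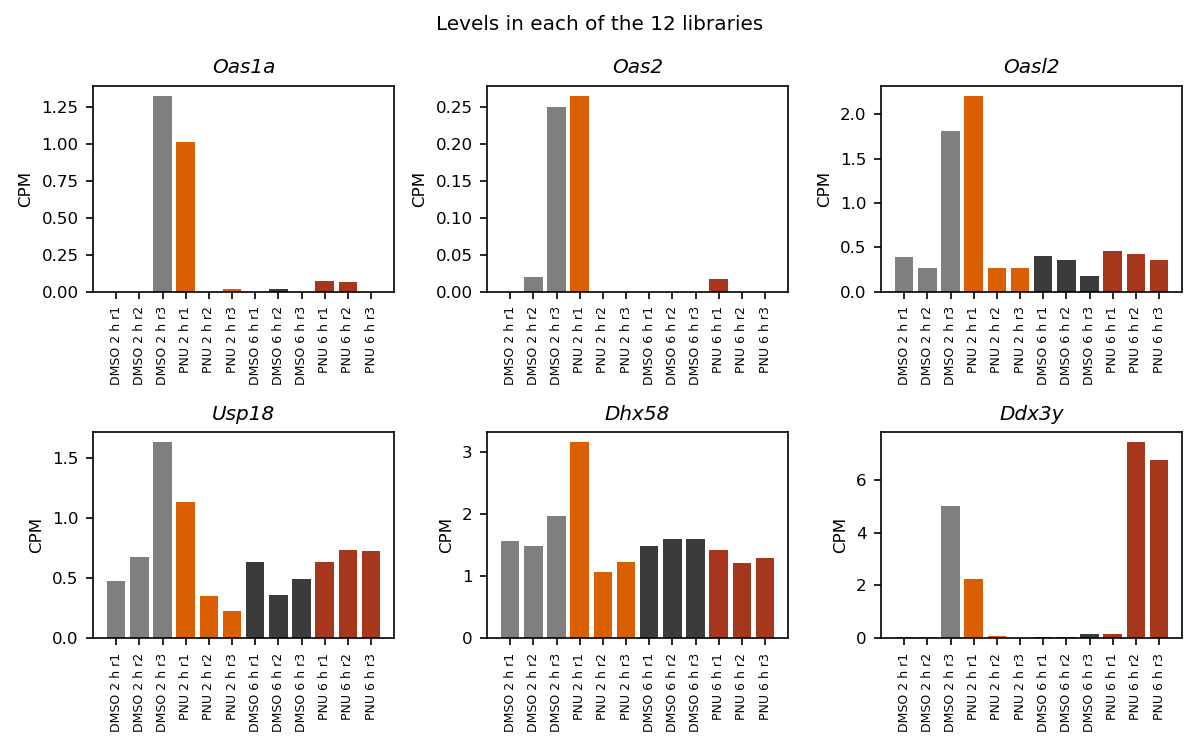
Bars give CPM of 5 members and of the Y-linked gene Ddx3y in each of the 12 libraries, coloured by group, with a separate linear axis from 0 in each panel. Oas1a, Oas2, Oasl2, Usp18 and Dhx58 are highest in PNU 2 h replicate 1 and DMSO 2 h replicate 3; Ddx3y is also high in PNU 6 h replicates 2 and 3.

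Of the other antiviral effectors, Ifi35, an interferon-induced leucine zipper protein, stood at 19.995, 15.1 and 15.9 CPM with PNU at 2 h and 28.2, 23.6 and 19.2 CPM with DMSO. The values at 6 h were 22.98, 18.1 and 18.03 CPM with PNU and 23.1, 22.9 and 24.5 CPM with DMSO. Ranges overlapped at both times, and the differences of -0.45 ± 0.16 (adjusted p = 0.109) and -0.24 ± 0.16 (adjusted p = 0.527) did not pass. Xaf1, a pro-apoptotic partner of XIAP, held 6.12, 4.09 and 3.40 CPM with PNU at 2 h and 9.22, 11.2 and 6.15 CPM with DMSO, with the highest PNU and the lowest DMSO library almost level. Its 6 h values were 13.5, 8.43 and 7.02 CPM with PNU and 9.38, 9.41 and 8.81 CPM with DMSO. Its difference was -0.93 ± 0.29 at 2 h (adjusted p = 0.0830) and 0.08 ± 0.28 at 6 h, and the latter turned to -0.24 without PNU 6 h replicate 1. Bst2 held 18.01, 8.36 and 8.96 CPM with PNU at 2 h and 22.6, 18.9 and 18.2 CPM with DMSO (-0.72 ± 0.28, adjusted p = 0.120). Mx2, a dynamin-like GTPase, stayed at or under 0.457 CPM. Ifi44 ranged from 0.0352 to 0.575 CPM, highest in PNU 6 h replicates 2 and 3 (0.575 and 0.502 CPM) and DMSO 2 h replicate 3 (0.532 CPM), and neither difference passed (-0.14 ± 0.96 and 2.12 ± 1.01). Mx1 was at 0 in all 2 h libraries and at most 0.0703 CPM at 6 h, and Rsad2, viperin, had 5 counts in PNU 6 h replicate 1 and 0 counts in the other 11 libraries.

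ISG15 is a ubiquitin-like protein that is attached to other proteins during infection, and USP18 removes it and also dampens the type I receptor. Isg15 was close to the floor: at 6 h it had 2, 16 and 23 counts with PNU and 1, 0 and 2 counts with DMSO, or 0.0351, 0.249 and 0.361 CPM against 0.0226, 0 and 0.0352 CPM. At 2 h it had 3, 0 and 2 counts with PNU and 0, 2 and 12 with DMSO. PNU 6 h replicates 2 and 3 were the highest libraries, and PNU replicate 1 had 2 counts, as had the highest DMSO library. The 6 h difference of 3.35 ± 1.24 did not pass (adjusted p = 0.216), and the 2 h value of -1.21 ± 1.29 turned to 0.77 without DMSO 2 h replicate 3. Usp18 held 1.13, 0.348 and 0.226 CPM with PNU at 2 h and 0.473, 0.676 and 1.63 CPM with DMSO. The 6 h values were 0.632, 0.731 and 0.721 CPM with PNU and 0.632, 0.359 and 0.493 CPM with DMSO, so the groups were separate only beyond the third digit. Its differences of -0.70 ± 0.57 and 0.51 ± 0.58 had adjusted p-values of 0.413 and 0.719.

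Trim25, the ubiquitin ligase that acts with the RNA sensor RIG-I, differed in opposite directions at 2 h and 6 h, without passing at either. It stood at 62.5, 49.2 and 51.3 CPM in PNU 2 h against 39.0, 42.2 and 38.6 CPM in DMSO 2 h. Its 6 h levels were 32.3, 27.5 and 26.6 CPM with PNU against 39.9, 40.2 and 38.9 CPM with DMSO. PNU libraries were thus the highest at 2 h and the lowest at 6 h, with no overlap and with DMSO at nearly the same level at both times (39.9 ± 1.94 and 39.7 ± 0.683, SD, n = 3). The differences of 0.48 ± 0.11 at 2 h and -0.45 ± 0.11 at 6 h lay just outside the threshold (edgeR adjusted p = 0.0589 and 0.0748), as did the difference between them, -0.93 ± 0.15 (adjusted p = 0.0757). Both DESeq2 values passed (adjusted p = 0.00183 and 0.0101), and so did that of the difference between the times (adjusted p = 2.83e-05). Without DMSO 2 h replicate 3 the 2 h edgeR value passed (adjusted p = 0.00730), beside 43.8% of all genes. Without PNU 6 h replicate 1 the 6 h value did (adjusted p = 0.0195), beside 6.00%. These libraries lie nearer to the other treatment, so leaving them out can by itself add calls. Without any other single library of the compared groups Trim25 did not pass. At 2 h it also failed with near-identical libraries summed and in the 2 h libraries alone. It passed in the 6 h libraries alone and, at both times, with a block for the replicate number. Trim25 lies on chr11:88999376-89020293.

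The sensors themselves gave smaller or noisier values. Ifih1, which encodes the long-RNA sensor MDA5, ran from 0.511 to 1.13 CPM with PNU at 2 h and from 1.16 to 2.70 CPM with DMSO (-1.37 ± 0.39, adjusted p = 0.0755), with overlapping groups at 6 h (-0.21 ± 0.37). Ddx58, which encodes RIG-I, ran from 16.4 to 19.0 CPM and from 19.5 to 28.2 CPM at 2 h (-0.39 ± 0.15, adjusted p = 0.115). Dhx58, their regulator LGP2, was highest at 3.16 CPM in PNU 2 h replicate 1 and differed by 0.15 ± 0.35 and -0.25 ± 0.35. Zbp1, the Z-nucleic acid sensor, reached at most 0.157 CPM.

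PARP9 and the ligase DTX3L form a complex that modifies proteins in the interferon response, and PARP14 is a related enzyme. Parp9 held 6.52, 4.24 and 4.24 CPM with PNU at 2 h and 7.03, 10.3 and 6.82 CPM with DMSO, and at 6 h 10.5, 6.11 and 6.24 CPM against 8.53, 9.45 and 8.79 CPM. The groups were separate at 2 h and overlapped at 6 h through PNU replicate 1 (-0.65 ± 0.25, adjusted p = 0.118, and -0.22 ± 0.24, adjusted p = 0.719). Dtx3l, which starts beside Parp9 on chromosome 16 in the opposite direction, held 3.38, 2.81 and 3.49 CPM with PNU at 2 h and 6.15, 8.03 and 3.21 CPM with DMSO. The 6 h values were 6.62, 4.90 and 4.40 CPM against 5.55, 6.35 and 7.05 CPM. DMSO 2 h replicate 3 again lay within the PNU range, and neither difference passed (-0.80 ± 0.28, adjusted p = 0.0972, and -0.24 ± 0.28, adjusted p = 0.726). The gene models of Parp9 and Dtx3l overlap, and the sources used here do not say whether reads were counted by strand. Parp14 differed by -0.74 ± 0.41 and 0.14 ± 0.39.

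The interferon-inducible GTPases attack the vacuoles of intracellular pathogens. Irgm1 (chr11:48861968-48871683) held 52.8, 41.1 and 40.5 CPM with PNU at 2 h and 69.4, 79.7 and 65.1 CPM with DMSO, or 44.8 ± 6.95 against 71.4 ± 7.52 CPM (SD, n = 3). Its 6 h levels were 65.0, 61.2 and 57.8 CPM with PNU and 79.3, 80.5 and 80.6 CPM with DMSO. Every PNU library lay below every DMSO library of its time. The 2 h difference of -0.63 ± 0.11 passed (edgeR adjusted p = 0.0416), and the 6 h difference of -0.37 ± 0.11 did not (adjusted p = 0.131). The difference between the times was 0.26 ± 0.16 (adjusted p = 0.541). The 2 h call was lost, with values of -0.56 to -0.63, when PNU 2 h replicate 2 or 3 or DMSO 2 h replicate 1 or 2 was left out (adjusted p = 0.194, 0.212, 0.117 and 0.188), and also with near-identical libraries summed (-0.57, adjusted p = 0.550) and in a fit of the 2 h libraries alone (-0.64, adjusted p = 0.266). Without PNU 2 h replicate 1 it was kept (adjusted p = 0.0111), beside 80 genes higher and 50 lower of 17639. It was also kept without DMSO 2 h replicate 3 (adjusted p = 0.000492), in a fit that called 43.8% of all genes.

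The other GTPases varied more. Gbp7 held 0.398, 0.435 and 0.481 CPM with PNU at 2 h and 1.47, 1.89 and 0.626 CPM with DMSO (-1.55 ± 0.44, adjusted p = 0.0740). At 6 h, PNU replicate 1 held 2.53 CPM, above all DMSO libraries, and replicates 2 and 3 held 1.18 and 0.956 CPM, below them (-0.32 ± 0.40). The same split was seen in Gbp2, at 8.26 CPM in PNU 6 h replicate 1 and 2.94 and 3.21 CPM in replicates 2 and 3, against 4.23 to 4.78 CPM with DMSO, and in Igtp, at 3.04 against 0.715 and 0.941 CPM, with DMSO at 2.11 to 2.41 CPM. Iigp1 had the lowest fitted value of the members at 2 h (-2.86 ± 0.84, adjusted p = 0.0775), from 0.354, 0.174 and 0.0902 CPM with PNU and 1.49, 2.70 and 0.344 CPM with DMSO. The groups overlapped by DMSO replicate 3 alone. Gbp3 differed by -0.66 ± 0.45 and -0.32 ± 0.43, and Gbp5 reached at most 0.316 CPM. GBP genes are close copies, so the split of reads between them is uncertain.

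**Figure D3:**
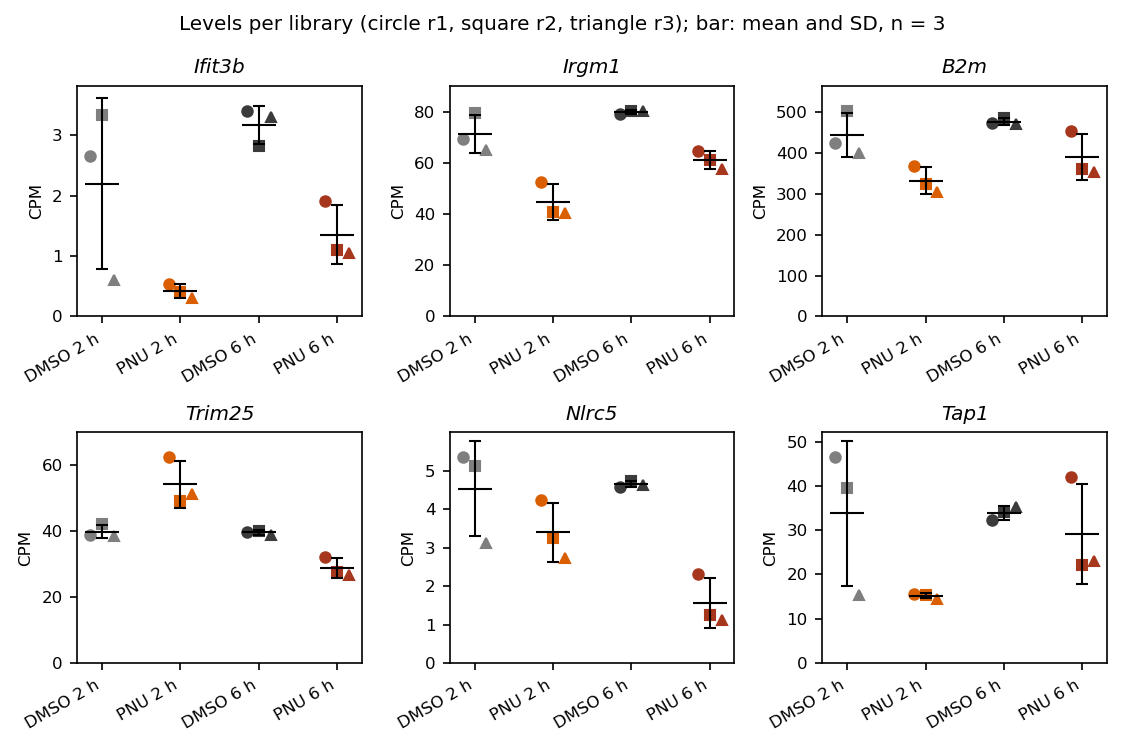
CPM of 6 members in each library (circle, square and triangle for replicates 1, 2 and 3), with the mean and SD of each group of 3, on linear axes from 0. PNU libraries lie below DMSO at both times for Ifit3b, Irgm1 and B2m, Trim25 is higher with PNU at 2 h and lower at 6 h, and Tap1 shows DMSO 2 h replicate 3 and PNU 6 h replicate 1 away from the rest of their groups.

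In the MHC class I group, the fitted differences at 2 h were small for the chains of the molecule and larger for peptide supply. B2m (chr2:122147686-122153083) stood at 367, 322 and 304 CPM with PNU at 2 h and 424, 502 and 400 CPM with DMSO. The 6 h levels were 453, 361 and 352 CPM with PNU and 473, 484 and 469 CPM with DMSO. The groups were separate at both times, though PNU 6 h replicate 1 lay close to DMSO, and the differences of -0.38 ± 0.12 and -0.28 ± 0.12 did not pass (adjusted p = 0.0803 and 0.271). The heavy chains overlapped between groups. H2-K1 ran from 23.1 to 28.9 CPM with PNU and 23.8 to 31.3 CPM with DMSO at 2 h (-0.06 ± 0.16), and differed by 0.04 ± 0.16 at 6 h. H2-D1 differed by -0.15 ± 0.15 at both times, and reads shared among class I copies make both genes uncertain.

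Nlrc5 (chr8:94434356-94527272), which encodes the factor that switches on class I promoters, stood at 2.32, 1.26 and 1.11 CPM with PNU at 6 h and 4.58, 4.74 and 4.63 CPM with DMSO, or 1.56 ± 0.658 against 4.65 ± 0.0845 CPM (SD, n = 3). Its 2 h levels were 4.24, 3.24 and 2.72 CPM with PNU and 5.35, 5.13 and 3.11 CPM with DMSO. The groups were far apart at 6 h and overlapped at 2 h. The 6 h difference was -1.56 ± 0.30 (edgeR adjusted p = 0.0360), the 2 h difference -0.38 ± 0.29 (adjusted p = 0.385), and the difference between them -1.18 ± 0.42 did not pass (adjusted p = 0.344). The 6 h call was lost, with values of -1.36 to -1.57, without PNU 6 h replicate 2 or 3 or any DMSO 6 h library (adjusted p = 0.201, 0.187, 0.145, 0.162 and 0.159), and with near-identical libraries summed (-1.41, adjusted p = 1.00). It was kept without PNU 6 h replicate 1 (-1.96, adjusted p = 0.00397), in a fit that called 6.00% of all genes.

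Tap1, Psmb9 and Psmb8 lie side by side on chromosome 17, between 34181988 and 34201454, and supply peptides: TAP1 is a subunit of the peptide transporter, and PSMB8 and PSMB9 are subunits of the immunoproteasome. Tap1 held 15.6, 15.3 and 14.5 CPM with PNU at 2 h and 46.5, 39.5 and 15.4 CPM with DMSO. The PNU libraries were tightly grouped and DMSO replicate 3 lay among them. The 6 h values were 42.1, 22.2 and 22.9 CPM with PNU and 32.2, 34.2 and 35.2 CPM with DMSO, so PNU replicate 1 lay above DMSO and the other PNU libraries below. Neither difference passed (-1.12 ± 0.35, adjusted p = 0.0850, and -0.21 ± 0.35, adjusted p = 0.822). Psmb8 differed by -1.54 ± 0.53 at 2 h (adjusted p = 0.0950) and Psmb9 by -1.59 ± 0.73 (adjusted p = 0.170), and at 6 h by -0.64 ± 0.50 and -0.13 ± 0.68. The gene models of Psmb9 and Tap1 overlap at their starts, so reads there may be shared.

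Cxcl10, a chemokine that draws T cells and the textbook secreted marker of the interferon response, was scarce. It stood at 0.110, 0.0870 and 0.105 CPM with PNU at 2 h and 0.0676, 0 and 0.0782 CPM with DMSO, or 5, 4 and 7 counts against 4, 0 and 5. Its 6 h values were 0.228, 0.0933 and 0.141 CPM with PNU and 0.135, 0.0189 and 0.106 CPM with DMSO. These values are at most a few times the floor and were not tested.

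**Figure D4:**
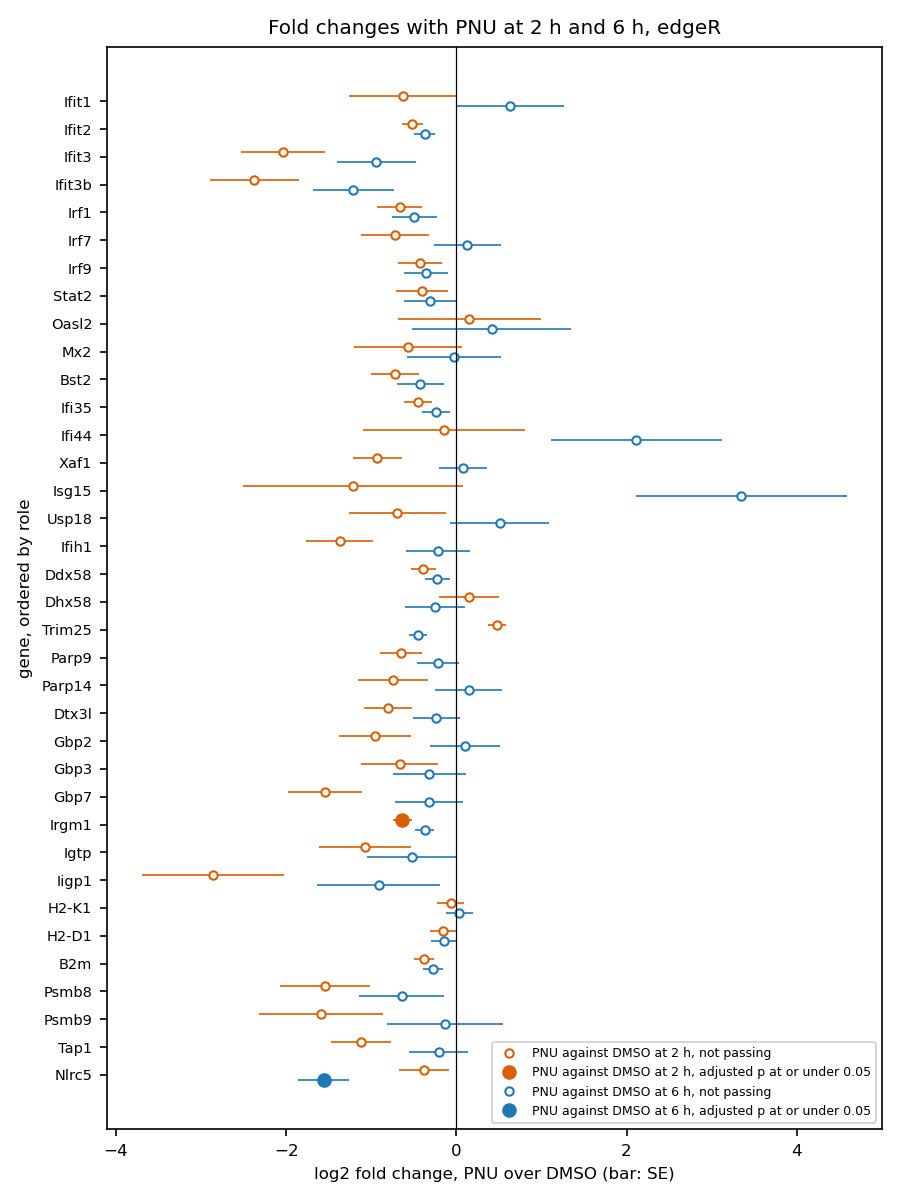
Fitted log2 fold change of PNU over DMSO (x axis) for each of the 36 members tested (y axis, by role) at 2 h and 6 h, with bars of 1 SE. Filled points passed at an edgeR adjusted p of 0.05: Irgm1 at 2 h and Nlrc5 at 6 h. At 2 h 33 of 36 points lie below 0, and at 6 h 26 of 36.

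The effect of PNU was then compared between the times. The difference (6 h minus 2 h) passed for 0 members, beside 0.0350% of all genes (0.0175% lower and 0.0175% higher), with 4 members at an unadjusted p under 0.05 in edgeR and 1, Trim25, passing in DESeq2. The members' median difference was 0.55 against 0.03 over all genes. The controls were also compared over time. Between DMSO 2 h and DMSO 6 h, 0 members and 0.00% of all genes passed in edgeR, with 0 members and 818 genes at an unadjusted p under 0.05, and DESeq2 called 18 genes and 0 members. Within PNU, 16.1% of all genes passed between 2 h and 6 h (7.42% higher and 8.66% lower at 6 h). Of the members, Gbp7, Irgm1, Xaf1 and Gbp2 were higher at 6 h (1.76 ± 0.43, 0.39 ± 0.11, 1.03 ± 0.29 and 1.43 ± 0.43) and Trim25 and Nlrc5 lower (-0.98 ± 0.11 and -1.18 ± 0.30), with adjusted p-values from 0.00151 to 0.0434. The comparisons with DMSO and within PNU share libraries and are not independent. The list rests on every PNU library. Without PNU 2 h replicate 1, 2 or 3, 2, 0 and 0 members were higher and 1, 1 and 1 lower. Of all genes, 485, 198 and 192 were then higher and 621, 420 and 374 lower. Without PNU 6 h replicate 1, 2 or 3, 0, 1 and 2 members were higher and 2, 1 and 1 lower. Of all genes, 789, 360 and 388 were then higher and 921, 438 and 513 lower. These fits tested 17587 to 17648 genes. Without both libraries that stood apart, 11 members were higher and 2 lower, beside 3110 and 3060 of 17406 genes.

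Both libraries that stood apart, DMSO 2 h replicate 3 and PNU 6 h replicate 1, were left out together because they lie nearer to the other treatment for most genes. This choice uses the outcome and can by itself add calls, so the counts that follow are a description and support no call. Of 36 members tested, 24 were called lower and 1, Trim25, higher at 2 h, beside 27.0% and 25.2% of all genes (52.2% in all). At 6 h 19 were called lower, and Isg15 and Ifi44 higher, beside 14.4% and 14.2% of all genes (28.6% in all). Most of the remaining 10 libraries are near-identical to another of their group, so these counts also carry the doubt about replication. The medians moved from -0.66 to -0.72 at 2 h and from -0.24 to -0.53 at 6 h. The fitted value of Iigp1 was then -3.36 at 2 h and -2.03 at 6 h. DESeq2 on all 12 libraries called 12 members lower and 1 higher at 2 h, beside 8.66% and 5.67% of all genes (14.3% in all), and 2 lower and 0 higher at 6 h, beside 2.05% and 3.29% (5.34% in all). The fit with a block for the replicate number, which no label supports as a pairing, called 1.81% of all genes at 2 h and 1.72% at 6 h.

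**Figure D5:**
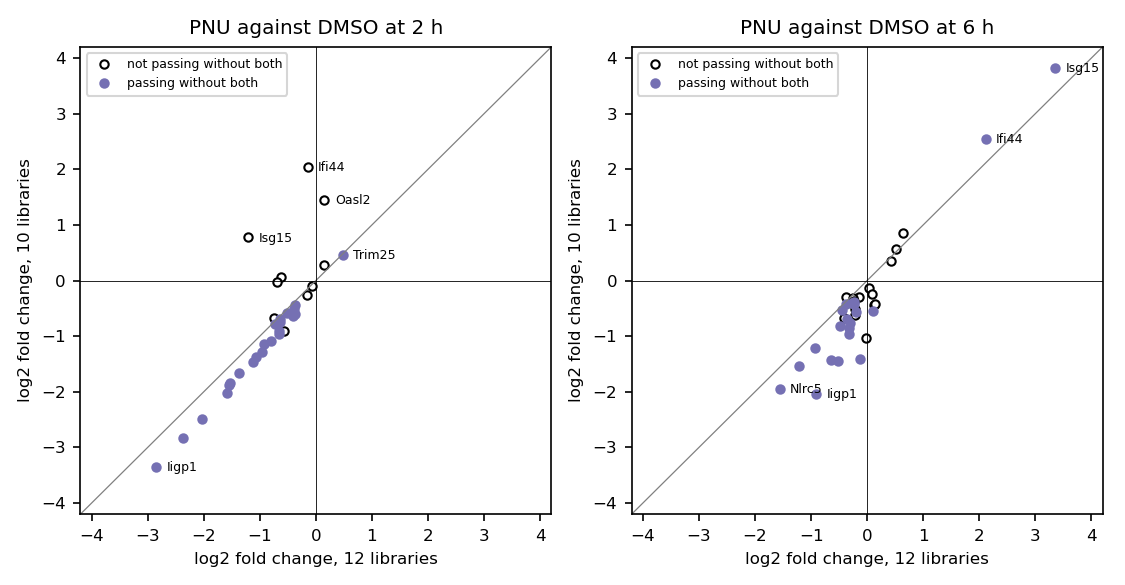
Log2 fold change of PNU over DMSO for each member with all 12 libraries (x axis) and without DMSO 2 h replicate 3 and PNU 6 h replicate 1 (y axis), at 2 h (left) and 6 h (right); the grey line marks equal values. Filled points passed without both: 25 members at 2 h and 21 at 6 h, and Isg15, Oasl2 and Ifi44 lie farthest above the line at 2 h.

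The rest of the pathway was read from lists that also were drawn up with earlier results known. The ligands were at or near 0: none of 20 interferon genes had enough counts to test, 13 of them had 0 counts in every library, Ifnb1 reached at most 0.0218 CPM and Ifng at most 0.0338 CPM, all under the floor. The receptors were present. Ifnar1 stood at 53.8 to 58.9 CPM with PNU and 58.9 to 78.7 CPM with DMSO at 2 h, and Ifnar2, the partner chain, at 24.04 to 27.0 and 24.4 to 38.1 CPM (-0.28 ± 0.10, adjusted p = 0.102, and -0.32 ± 0.16, adjusted p = 0.204). The interferon γ receptor chains Ifngr1 and Ifngr2 differed by 0.03 ± 0.08 and -0.14 ± 0.07. Socs1, a feedback inhibitor of JAK kinases, stood at 10.2 to 11.8 CPM with PNU and 6.47 to 9.34 CPM with DMSO at 2 h (0.44 ± 0.31, adjusted p = 0.341). Ciita, the class II counterpart of Nlrc5, stayed at 0.141 to 0.718 CPM in all libraries.

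Of these lists, none had a member that passed with PNU at 2 h or 6 h in edgeR, beside the 0.291% and 1.05% of all genes: 15 receptor and JAK-STAT genes, 11 negative regulators, 14 of 17 nucleic acid sensing genes, 32 of 47 other interferon-stimulated genes, 23 of 25 other class I pathway genes and 6 of 7 class II genes were tested. At an unadjusted p under 0.05 there were 6, 5, 6, 14, 6 and 1 genes at 2 h, beside 5149 of all 17164 genes tested. The counts at 6 h were 5, 1, 4, 7, 4 and 1, beside 2683 of all genes. The other interferon-stimulated genes had 26 of 32 negative values at 2 h, with a median of -0.46, and 20 of 32 at 6 h, with a median of -0.23. The other class I pathway genes had 18 of 23 negative values at 2 h and 11 of 23 at 6 h, with medians of -0.11 and 0.01.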

How the data were processed

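RNA from cultures labelled as Müller glia was sequenced as 12 libraries after co-culture with treated RPE cells. Poly(A) RNA was read in pairs of 150 bases. Reads were trimmed by the authors with fastp 0.23.2, then aligned with STAR 2.5.2b to GRCm38 (ENSEMBL) and assigned to genes by featureCounts (Subread 1.5.2), per the labels' protocols. DESeq2 is named, without a role, in the submitters' processing notes. Each library has 1 deposited table of raw counts, with no normalization. Strand use, multi-mapping reads and the annotation release are not given in the sources used here.

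CPM is the count over the library total. TPM uses the deposited exonic length and serves only to compare genes. The test was edgeR 4.0.16 (R 4.3.3): genes kept by filterByExpr (17164), TMM factors, 1 robust quasi-likelihood model with 4 group means over 12 libraries, 5 contrasts, and Benjamini-Hochberg adjustment over all genes at a threshold of 0.05. The common biological coefficient of variation was 0.198. SE is the fold change divided by the square root of F. Alternatives included DESeq2 1.42.0, limma-voom (limma 3.58.1), other scalings, other filters, other sets of libraries, a replicate block, a fit without robustness, and near-identical libraries (pairwise coefficient of variation under 0.05) summed to 8 in all. Promoter windows came from RefSeq (GRCm38.p6).

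The members and lists were chosen with earlier results of these data known. Values per library are given for the member of highest level and of smallest p in each role and for every member that passed, and other genes were named after their values were seen. Some genes of the other lists are not reported here.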

Additional observations from a re-analysis of the deposited data

How the results depend on the processing

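Of the 36 members' values, 33 were negative at 2 h and 26 at 6 h with TMM, upper-quartile and RLE factors, library totals and DESeq2. These counts were 34 and 29 in limma-voom, 33 and 27 with the replicate block, 30 and 31 without both libraries that stand apart, and 33 and 24 of 40 with near-identical libraries summed. Among members chosen by highest level, smallest p or passing, the sign turned for 3. Isg15 at 2 h turned to 0.78 without both libraries that stand apart and to 0.77 without DMSO 2 h replicate 3. Oasl2 at 2 h turned to -0.21 in limma-voom and -0.11 with the replicate block. It was -1.62 without PNU 2 h replicate 1, and -0.18 and -0.27 without DMSO 2 h replicates 1 and 2. Xaf1 at 6 h turned to -0.24 without both and without PNU 6 h replicate 1. Leaving out 1 library at a time moved Isg15, Oasl2 and Xaf1 between -2.01 and 0.77, -1.62 and 1.47, and -0.24 and 0.27. Of the other members, Ifit1 and Ifi44 turned at 2 h without both libraries (0.06 and 2.04). At 6 h Irf7, Gbp2, Parp14 and H2-K1 did so (-0.44, -0.54, -0.43 and -0.13). The cause was not tested. Counts of passing members and of all passing genes moved more. At 2 h, 1 member and 50 genes passed; DESeq2 gave 13 and 2461, no filter 140 genes, the 2 h libraries alone 0 and 0, near-identical libraries summed 0 and 0 (9 members and 1487 genes at an unadjusted p under 0.05), and the fit without both libraries 25 and 9080. At 6 h, 1 member and 181 genes passed; DESeq2 gave 2 and 917, the 6 h libraries alone 6 and 1646, summed libraries 0 and 0 (1 and 267 at an unadjusted p under 0.05), and the fit without both 21 and 4981. For the PNU effect at 6 h minus that at 2 h (0 members, 6 genes), DESeq2 gave 1 and 281, no filter 1 and 15, library totals 0 genes, summed libraries 0 genes and the fit without both 9 and 3788. Between DMSO 2 h and 6 h (0 genes), DESeq2 gave 18 and the fit without both 117. Within PNU, 6 members and 2759 genes passed, and the members' median was 0.61. DESeq2 gave 11 members there, beside 1989 genes higher and 1957 lower. The PNU libraries alone gave 10 and 5311, summed libraries 0 and 0, and the fit without both 13 and 6170, with a median of 0.22. The replicate numbers do not pair the libraries by any label, and same-numbered libraries of PNU and DMSO deviated together with correlations of -0.068 to 0.058 at 2 h and -0.006 to 0.025 at 6 h. Those of PNU at 2 h and 6 h did so with 0.170, 0.111 and 0.099. Within PNU the block called 7 members higher and 2 lower, beside 1286 and 1561 of 17164 genes. With the replicate block 4 members (Ifit2, Ifit3b, Trim25 and Irgm1) and 311 genes passed at 2 h, 2 members (Trim25 and Nlrc5) and 296 genes at 6 h, and 0 genes for the difference between the times. Leaving out 1 library at a time gave 0 to 19 members and 0 to 7724 genes at 2 h (most without DMSO 2 h replicate 3), 0 to 3 and 22 to 1057 at 6 h (most without PNU 6 h replicate 1), 0 to 7 and 0 to 2947 for the difference between the times, 0 to 4 genes for DMSO over time, and 1 to 3 and 566 to 1710 within PNU. The members' median then ranged from -1.07 to -0.50 at 2 h, from -0.48 to -0.07 at 6 h, from 0.19 to 0.95 for the difference, from -0.07 to 0.19 for DMSO over time and from 0.18 to 1.11 within PNU. The share of members with the ISRE core in the 250 bases before the start alone was 47.1%, against 3.46% of all genes. Members under about 0.1 CPM rest on a few counts, so differences in them were not detectable at this depth.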

Other observations

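Some genes outside the list were high in the libraries in which the OAS genes were high, and they are given as values, chosen after they were seen. Thy1, a surface protein of fibroblasts and neurons, stood at 16.1 CPM in PNU 2 h replicate 1 and 21.9 CPM in DMSO 2 h replicate 3, and at 0.309 to 4.12 CPM in the other 10 libraries. Rtp4, an interferon-induced chaperone, stood at 2.03 and 2.19 CPM in these libraries and at 0.544 to 1.40 CPM in the others. The Y-linked genes Kdm5d and Eif2s3y had the distribution of Ddx3y, at 1.15 and 2.14 CPM in PNU 2 h replicate 1, 1.60 and 4.58 CPM in DMSO 2 h replicate 3, and 1.34 and 4.93 CPM in PNU 6 h replicate 2.

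The genes that follow were also chosen after their values were seen. Among interferon-stimulated genes that are not members, Lgals3bp, a secreted glycoprotein, held 39.0, 13.4 and 12.7 CPM with PNU at 2 h and 76.0, 67.1 and 37.4 CPM with DMSO (-1.43 ± 0.43 log2, edgeR adjusted p = 0.0787). At 6 h it held 47.2, 30.3 and 28.2 CPM with PNU against 71.3, 72.7 and 72.2 CPM with DMSO, with no overlap between the groups (-1.02 ± 0.42, adjusted p = 0.273). Ifitm3, which blocks entry of enveloped viruses, held 140, 99.8 and 100.4 CPM with PNU at 2 h and 276, 249.9 and 132 CPM with DMSO (-0.91 ± 0.31, adjusted p = 0.0956). Uba7, the enzyme that activates ISG15, held 2.10, 1.02 and 1.13 CPM with PNU at 2 h and 7.72, 6.87 and 1.60 CPM with DMSO (-1.90 ± 0.58, adjusted p = 0.0803). In the peptide pathway, Psme1, a proteasome activator subunit, held 26.2, 26.5 and 26.0 CPM with PNU and 48.8, 47.0 and 25.7 CPM with DMSO at 2 h (-0.59 ± 0.19, adjusted p = 0.0892), with DMSO 2 h replicate 3 level with the PNU libraries. Socs3, a feedback inhibitor of cytokine receptors, went the other way, at 120, 89.4 and 91.0 CPM with PNU and 34.6, 28.1 and 50.8 CPM with DMSO at 2 h (1.44 ± 0.35, adjusted p = 0.0636). None of these differences passed the threshold.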
